A study of Mesocricetus auratus with 24 samples.

Results

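Totum-070, a blend of plant extracts rich in polyphenols, was given with a high-fat diet and compared with the high-fat diet alone in the liver of male golden Syrian hamsters. The comparison took the groups as labelled, with 8 HFD-T070 5% libraries and 8 HFD libraries, which are 16 of the 24 libraries of the series. It was repeated without HFD replicate 1, whose profile was nearer to that of the normal diet (ND) libraries, which left 7 HFD libraries. All hamsters carried the genotype given as WT and started the diets at 8 weeks of age. The HFD was rich in fat and fructose and held added cholesterol, and the HFD-T070 5% group ate the same food with 5% Totum-070 mixed into it, so each animal's dose followed its food intake. The methods give 12 weeks of supplementation and the labels give 6. Hamsters shared cages in groups of 2 to 3, and the cage of each library is not in the labels, so animals of a cage cannot be told apart from independent animals.

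The liver takes up dietary cholesterol and fatty acids, makes its own sterols and fatty acids when supply is low, and packs both into lipoproteins. Sterol-laden diets are known to lower the expression of sterol synthesis enzymes in liver cells. Fat-laden livers also draw in or activate macrophages, which carry enzymes of phospholipid breakdown and leukotriene synthesis that hepatocytes hold at low levels. RNA of a whole liver piece mixes these cells, so fewer cells of a type and less RNA per cell cannot be told apart. Defining markers of hepatocytes and of other liver cells could not be checked, because genes are identified in the table by Ensembl numbers and symbols were at hand only for 16 genes of a list of metabolic genes given by the study.

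Each library held 16885735 to 18836505 counts in the HFD-T070 5% group and 10789142 to 19809400 in the HFD group, with HFD replicate 7 the smallest. Levels are given in CPM, the counts relative to library totals corrected by TMM factors. In a principal component analysis of the 500 most variable genes among the 16 libraries, the first component held 60.0% of the variance. HFD replicates 3, 4, 5, 6 and 8 lay at 19.5 to 22.4 on it and the HFD-T070 5% libraries at −14.7 to 7.72. The other 3 HFD libraries stood apart from those 5, with replicate 1 at −52.6, replicate 2 at 0.01 and replicate 7 at 4.67, so replicates 2 and 7 lay within the HFD-T070 5% range of this component. On the second component, HFD replicate 2 (−3.09) lay within the HFD-T070 5% range of −7.40 to 0.18 and HFD replicate 7 (−16.9) did not. Between libraries, distance was the mean over genes of the absolute difference of log2 CPM. For each library the median of its distances to the other libraries of a group was taken. This median was 0.316 from ND and 0.692 from HFD for HFD replicate 1. For HFD replicate 2 it was 0.298 from HFD-T070 5% and 0.369 from HFD, and for HFD replicate 7 it was 0.535 and 0.629. HFD replicate 7 was further still from ND, at 0.827. The 8 HFD-T070 5% libraries were each nearer to their own group (0.241 to 0.282) than to HFD (0.303 to 0.440).

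**Figure D1:**
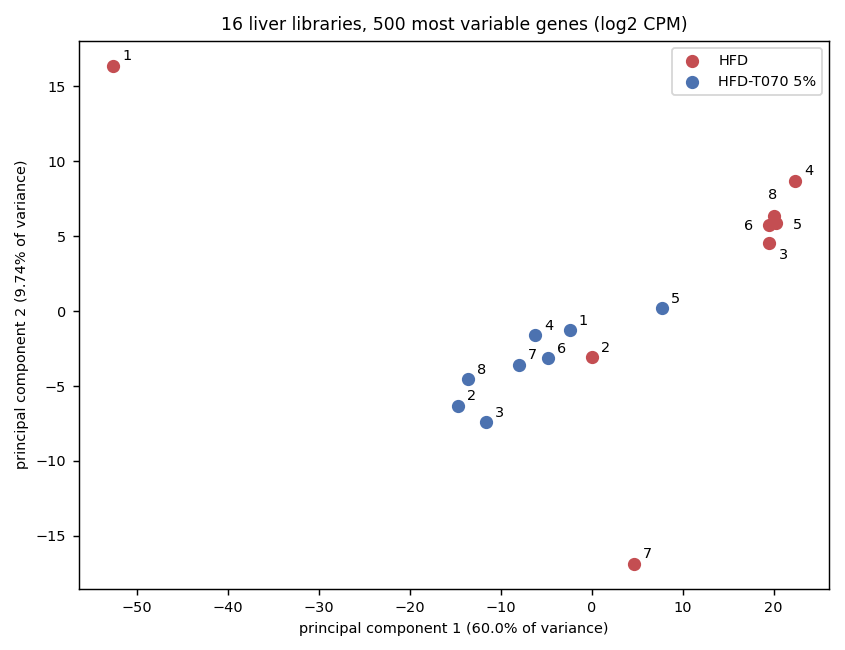
Positions of the 16 libraries on the first and second principal components of log2 CPM over the 500 most variable genes, 1 point per hamster, with the replicate number beside it. HFD replicate 1 lies at −52.6 on the horizontal axis, and 5 of the HFD libraries lie together at 19.5 to 22.4, to the right of every HFD-T070 5% library.

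The HFD-T070 5% livers differed from the HFD livers at 624 of 13134 genes tested (edgeR quasi-likelihood test, Benjamini-Hochberg adjusted p under 0.05). Of these genes, 405 (3.08%) were lower and 219 (1.67%) were higher with Totum-070. Without the normalization by TMM, the split was 478 lower and 146 higher, whereas the voom method of limma gave fewer falls than rises, 145 and 212. The falls were larger than the rises: the median log2 fold change was −0.93 for the genes called lower and 0.38 for those called higher, and 177 falls but 4 rises reached an absolute value of 1. Over all genes tested the median was −0.01, with an interquartile range of −0.17 to 0.13. The genes that fell were also counted at lower levels. Their median CPM was 7.94, beside 42.2 for the genes that rose and 16.9 for all genes tested.

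In this edgeR fit the direction of the calls went with the level of the gene, taken as its mean CPM over both groups. The bands were not counted with voom, which gave more rises than falls. Among 4069 genes with a mean of 1 to 10 CPM, 201 were lower and 25 were higher. In the 6794 genes between 10 and 100 CPM the numbers were 153 and 141, and in the 1415 genes of at least 100 CPM they were 19 and 51. The 856 genes under 1 CPM gave 32 and 2. The median absolute log2 fold change of the called genes was 1.19, 0.97, 0.43 and 0.41 in these bands from the lowest to the highest level. A gene of low level can pass the filter through the group in which it is high. A gene of few counts also needs a larger fold change to be called. Direction and size by level are therefore only a description.

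Without HFD replicate 1, the number of genes called was 2935 of 13218, with 1711 (12.9%) lower and 1224 (9.26%) higher, and these took in 623 of the 624 genes above. The call that was lost was that of Lipg. HFD replicate 1 was left out for its expression profile. The counts and p-values without it, here and below, follow a choice made on the same values and are therefore only a description. In this comparison 376 falls and 42 rises reached an absolute log2 fold change of 1, and the median of the called genes was −0.66 for falls and 0.38 for rises. By level, with the limits given above, falls and rises numbered 709 and 153 at 1 to 10 CPM, 765 and 723 at 10 to 100 CPM, and 118 and 331 at 100 CPM or more. The 2 groups did not overlap in any library at 13 genes that were lower (0.0990%) and 23 that were higher (0.175%), and without HFD replicate 1 at 147 (1.12%) and 104 (0.792%).

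**Figure D2:**
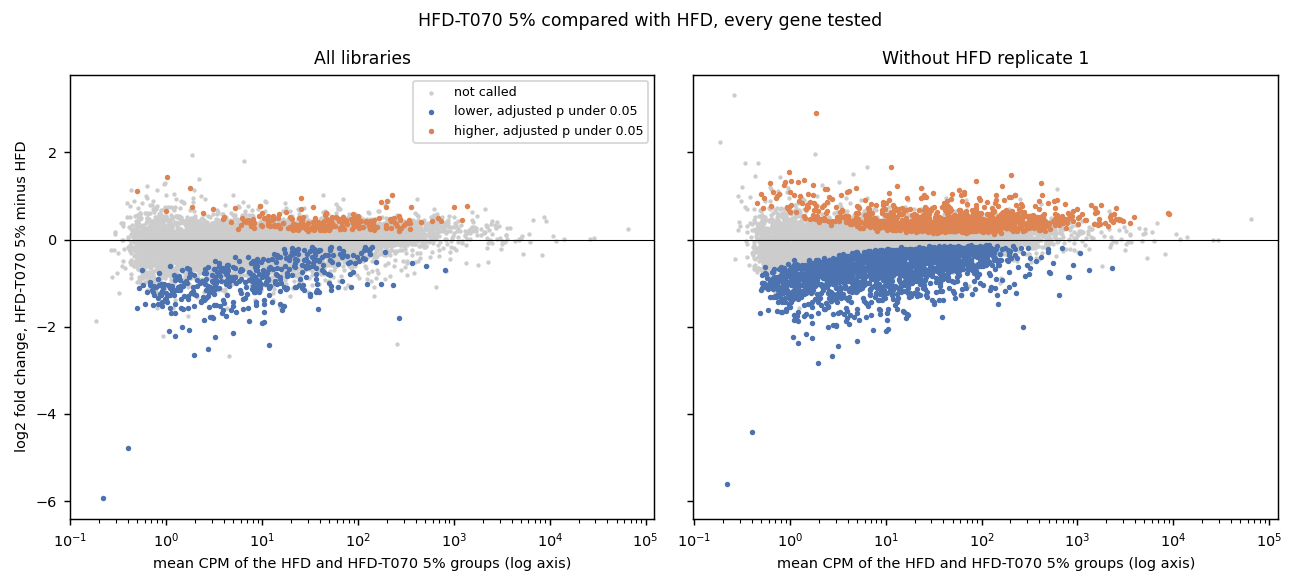
Log2 fold change of HFD-T070 5% minus HFD against the mean CPM of these groups (log axis) for every gene tested, over all libraries (left) and without HFD replicate 1 (right), with genes of adjusted p under 0.05 in colour. The genes called lower spread over low levels and the genes called higher crowd near 0 at middle and high levels; the lowest points, under 1 CPM, are genes with few or no counts in the HFD-T070 5% group, whose fitted value depends on the prior count.

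**Figure D3:**
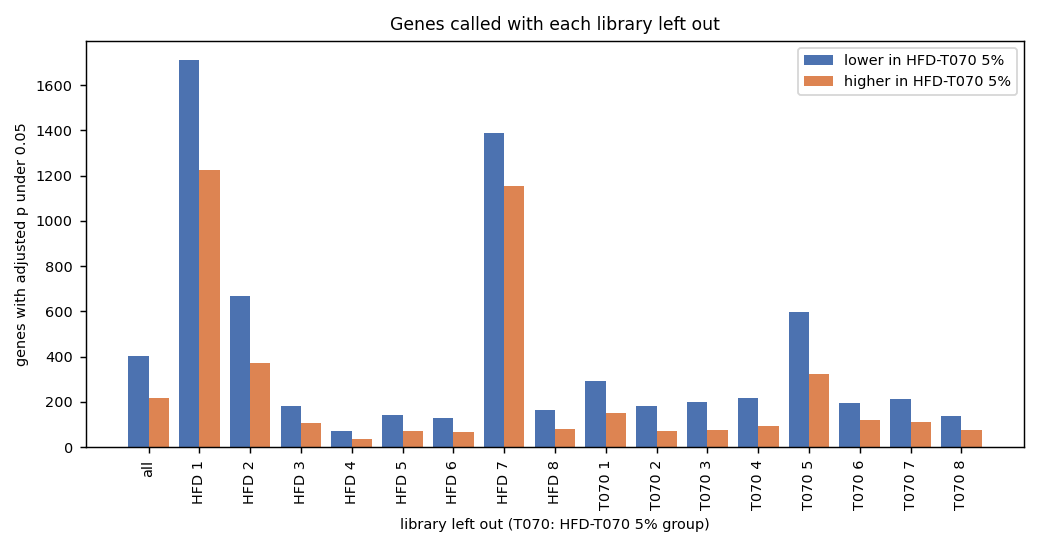
Number of genes with an adjusted p under 0.05 in HFD-T070 5% compared with HFD, lower (blue) and higher (orange), over all libraries and with each HFD or HFD-T070 5% library left out. The bars are tallest without HFD replicate 1 (1711 and 1224) and without HFD replicate 7 (1387 and 1155), and shortest without HFD replicate 4 (71 and 34).

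The number of calls moved with single libraries of both groups. It was 1387 lower and 1155 higher without HFD replicate 7, 669 and 371 without HFD replicate 2, 598 and 324 without HFD-T070 5% replicate 5, and 71 and 34 without HFD replicate 4. Without HFD replicate 3, 5, 6 or 8 the numbers lay at 131 to 183 lower and 65 to 109 higher, and without 1 of the other 7 HFD-T070 5% libraries at 136 to 293 lower and 73 to 151 higher. The spread between libraries is given as a description, with no test. The median standard deviation of log2 CPM over genes was 0.332 in the HFD group, 0.286 without HFD replicate 1, 0.173 in the HFD-T070 5% group and 0.210 in the ND group. It was smaller with Totum-070 than in the HFD group at 11369 of the genes tested (86.6%), and smaller than in the 7 other HFD libraries at 9950 (75.8%). The 100 most counted genes took 39.8 to 43.2% of counts in the HFD-T070 5% libraries, 35.5 to 38.3% in HFD replicates 3, 4, 5, 6 and 8, and 46.5%, 42.7% and 46.4% in HFD replicates 1, 2 and 7. Between the groups this share did not differ beyond the spread, at 41.6 ± 1.22% (SD, n = 8) with Totum-070 and 40.2 ± 4.39% (SD, n = 8) without it (exact two-sided permutation test, p = 0.382, adjusted over 2 measures 0.414). Its part in the calls was not tested.

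The study's list of metabolic genes holds 18 genes of the count table, all of which passed the filter. Over all libraries, 17 of the 18 had a lower fitted level with Totum-070 than with HFD alone, and 14 were called lower and none higher (background 3.08% and 1.67%). The study chose the list for a difference in these same libraries, so this count is no independent evidence of a direction. The median log2 fold change of the list was −1.19, beside −0.01 over all genes tested. Without HFD replicate 1 it was −1.28, with 14 genes again called lower (background 12.9%); Lipg was no longer called and Hk2 was. With voom the number called was 2, which were Alpl and ENSMAUG00000000598, both lower (background 1.10% lower and 1.61% higher). With only the HFD and HFD-T070 5% libraries in the fit it was 3, these and Asns, again lower (background 0.623% and 0.469%).

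**Figure D4:**
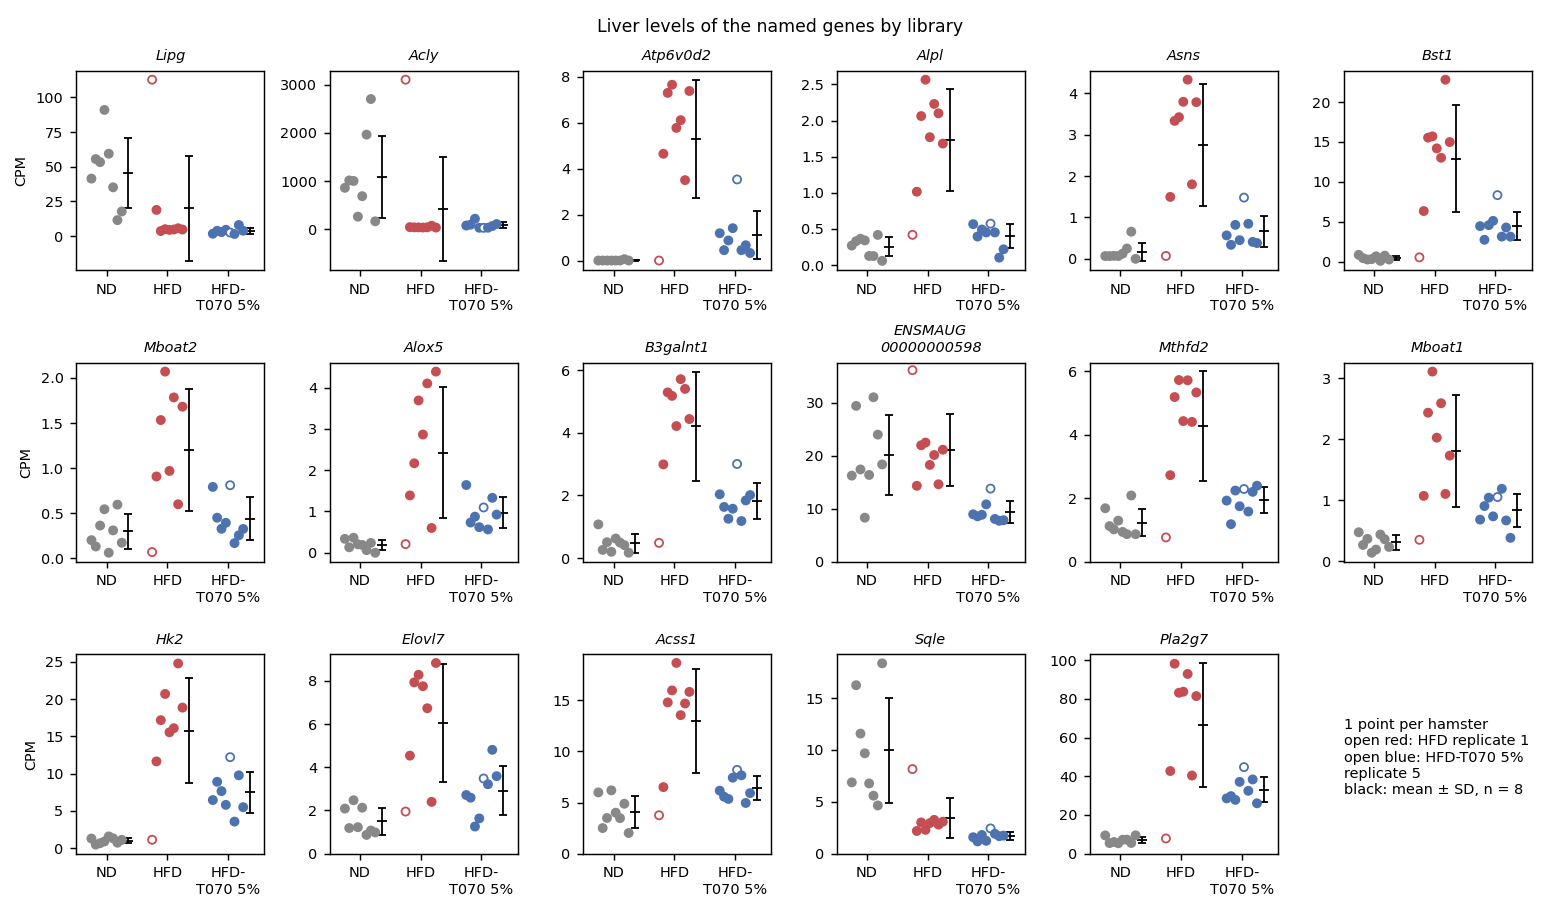
CPM of the 17 named genes in each of the 24 libraries, 1 panel per gene and 1 point per hamster, with the mean and SD of each group in black (n = 8) and HFD replicate 1 and HFD-T070 5% replicate 5 as open points. At 13 genes the open red point is the lowest of the HFD libraries and at 4 it is the highest, and at ENSMAUG00000000598 all HFD-T070 5% points lie below all HFD points.

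A pair of the listed genes that are known from macrophages and other myeloid cells were lower with Totum-070. Atp6v0d2 (ENSMAUG00000001919) encodes a subunit of the proton pump that acidifies lysosomes, and is known from osteoclasts and macrophages. Its lowest, median and highest levels were 0, 5.94 and 7.65 CPM in the HFD group and 0.326, 0.770 and 3.53 CPM in the HFD-T070 5% group. The 0 was that of HFD replicate 1, while the rest of the group began at 3.50 CPM, so without it the groups overlapped only through HFD-T070 5% replicate 5, the highest of its group. Atp6v0d2 fell by 2.24 on the log2 scale (standard error, SE, 0.48, adjusted p = 0.0177, edgeR) and by 2.43 without HFD replicate 1 (SE 0.33, adjusted p = 5.34e-05). Bst1 (ENSMAUG00000009435), a cell surface enzyme that consumes NAD and was first found on bone marrow stroma, had 0.557, 14.6 and 22.8 CPM in the HFD group and 2.76, 4.38 and 8.35 CPM with Totum-070. Again HFD replicate 1 was the lowest and HFD-T070 5% replicate 5 the highest of its group, and 6 of the 8 HFD libraries were above every HFD-T070 5% library. For Bst1 this was a log2 fold change of −1.51 (SE 0.36, adjusted p = 0.0232) and −1.70 without HFD replicate 1 (SE 0.23, adjusted p = 3.09e-05). Over the alternatives tried, the adjusted p ranged from 1.69e-05 to 0.180 for Atp6v0d2 and from 1.96e-05 to 0.170 for Bst1. Such ranges cover the alternatives in which a gene passed the filter.

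The listed enzymes of lipid mediators and phospholipid remodelling, 4 in all, were each called lower. Pla2g7 (ENSMAUG00000019624) encodes the platelet-activating factor acetylhydrolase that travels on lipoproteins and is made by macrophages. It had 7.87, 82.3 and 98.2 CPM in the HFD group and 26.0, 31.1 and 44.7 CPM with Totum-070, and 5 HFD libraries lay above all HFD-T070 5% libraries. HFD replicates 2 and 7 were in the range of the supplemented animals and HFD replicate 1 was below it. In log2 terms Pla2g7 changed by −1.004 (SE 0.29, adjusted p = 0.0451) and −1.18 without HFD replicate 1 (SE 0.18, adjusted p = 6.93e-05). Alox5 (ENSMAUG00000018983), the 5-lipoxygenase that starts leukotriene synthesis, had 0.209, 2.52 and 4.39 CPM in the HFD group and 0.564, 0.899 and 1.64 CPM with Totum-070. The groups overlapped more here than at Pla2g7, and HFD was the higher of the pair in 48 of 64 pairs of libraries. The log2 fold change of Alox5 was −1.37 (SE 0.36, adjusted p = 0.0319), and −1.55 without HFD replicate 1 (SE 0.29, adjusted p = 5.82e-04).

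Mboat1 (ENSMAUG00000017913) and Mboat2 (ENSMAUG00000005505) encode membrane acyltransferases that put fatty acids back onto lysophospholipids. Mboat1 had 0.348, 1.88 and 3.11 CPM in the HFD group and 0.381, 0.817 and 1.18 CPM with Totum-070 (log2 fold change −1.16, SE 0.28, adjusted p = 0.0240). Mboat2 had 0.0697, 1.25 and 2.07 CPM and 0.169, 0.361 and 0.811 CPM (log2 fold change −1.49, SE 0.38, adjusted p = 0.0272). At both genes HFD replicate 1 was the lowest HFD library, and HFD was the higher in 54 of 64 pairs. Without that library the log2 fold changes were −1.31 (adjusted p = 2.96e-04) and −1.66 (adjusted p = 4.97e-04). The counts behind them were few, 1 to 69 reads per HFD library for the pair, and as the genes are related some reads could be shared. Over the alternatives tried, the adjusted p ranged from 6.34e-06 to 0.204 for Pla2g7, from 3.09e-05 to 0.172 for Alox5, from 6.06e-05 to 0.0788 for Mboat1 and from 1.10e-04 to 0.123 for Mboat2.

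The listed genes of amino acid and one-carbon metabolism were called lower, and in CPM HFD replicate 1 alone made their groups overlap. Asns (ENSMAUG00000004155), the enzyme that makes asparagine and a known target of the amino acid stress response, had 0.0697, 3.38 and 4.33 CPM in the HFD group and 0.338, 0.508 and 1.48 CPM in the HFD-T070 5% group. All HFD libraries except replicate 1 were above all HFD-T070 5% libraries in CPM (log2 fold change −2.07, SE 0.41, adjusted p = 0.0134). The margin at Asns was narrow, with 1.496 CPM in HFD replicate 2 and 1.479 CPM in HFD-T070 5% replicate 5. By library totals without TMM their order was reversed, at 28 of 18528413 and 31 of 18836505 counts. Mthfd2 (ENSMAUG00000009261), a mitochondrial enzyme of the folate cycle that the same response is known to raise, had 0.766, 4.80 and 5.72 CPM and 1.18, 2.06 and 2.39 CPM. In CPM its libraries were arranged as those of Asns, with HFD replicate 1 below every HFD-T070 5% library and the other 7 above. Mthfd2 changed by −1.15 on the log2 scale (SE 0.25, adjusted p = 0.0180). Without HFD replicate 1 the log2 fold changes were −2.25 for Asns (SE 0.31, adjusted p = 2.80e-05) and −1.31 for Mthfd2 (SE 0.18, adjusted p = 3.02e-05), in the absence of any overlap in CPM. Over the alternatives tried, the adjusted p ranged from 6.64e-06 to 0.0960 for Asns and from 1.50e-05 to 0.0656 for Mthfd2.

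Alpl and ENSMAUG00000000598 kept an adjusted p under 0.05 in every alternative in which they were tested, from 1.98e-06 to 0.0186 and from 2.59e-05 to 0.0298. Alpl was not tested under the filter of at least 10 counts in every library. Alpl (ENSMAUG00000008803), the tissue-nonspecific alkaline phosphatase found on bile canaliculi, had the lowest p-value of all genes tested over all libraries. It had 0.418, 1.92 and 2.57 CPM in the HFD group and 0.102, 0.451 and 0.572 CPM with Totum-070. HFD replicate 1, at the lower end of its group, was below 5 of the 8 HFD-T070 5% libraries, and the other 7 HFD libraries began at 1.01 CPM, above all of them. Alpl thus had a log2 fold change of −2.09 (SE 0.30, adjusted p = 0.00305), on 2 to 12 counts per HFD-T070 5% library and 6 to 57 per HFD library. ENSMAUG00000000598, for which no symbol was at hand, had 14.3, 20.6 and 36.1 CPM in the HFD group and 7.73, 8.71 and 13.8 CPM in the HFD-T070 5% group. It was the one named gene at which every HFD library, replicate 1 included, was above every HFD-T070 5% library in CPM (64 of 64 pairs, background 0.0990%). By library totals without TMM the groups overlapped. There HFD-T070 5% replicate 5 (289 of 18836505 counts) was above HFD replicate 2 (268 of 18528413 counts). In log2 terms ENSMAUG00000000598 changed by −1.18 (SE 0.21, adjusted p = 0.0112) and −1.04 without HFD replicate 1 (SE 0.20, adjusted p = 6.68e-04).

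Sugar and acetate use, chain elongation and glycosylation were each represented by 1 or 2 genes. Hk2 (ENSMAUG00000020920), the hexokinase of muscle and fat that healthy hepatocytes hardly express, had 1.11, 16.6 and 24.8 CPM in the HFD group and 3.55, 7.05 and 12.2 CPM with Totum-070. Its log2 fold change of −1.07 (SE 0.32, adjusted p = 0.0547) did not pass the threshold over all libraries. Without HFD replicate 1, where the 7 HFD libraries began at 11.6 CPM, it was −1.25 (SE 0.20, adjusted p = 1.35e-04), and over the alternatives tried the adjusted p ranged from 1.14e-04 to 0.227. Acss1 (ENSMAUG00000016079), which activates acetate in mitochondria, had 3.76, 14.8 and 18.7 CPM and 4.96, 6.05 and 8.20 CPM (log2 fold change −1.02, SE 0.25, adjusted p = 0.0239). For Elovl7 (ENSMAUG00000007951), an elongase of long-chain fatty acids, the values were 1.95, 7.24 and 8.83 CPM and 1.26, 2.97 and 4.81 CPM (log2 fold change −1.07, SE 0.29, adjusted p = 0.0336). B3galnt1 (ENSMAUG00000001135), a glycosyltransferase of globoside synthesis, had 0.488, 4.81 and 5.71 CPM and 1.18, 1.74 and 3.01 CPM (log2 fold change −1.21, SE 0.29, adjusted p = 0.0239). In all of these HFD replicate 1 was the lowest HFD library. At Acss1 and B3galnt1 the next lowest was HFD replicate 2, and at Elovl7 it was HFD replicate 7. Without HFD replicate 1 the log2 fold changes of Acss1, Elovl7 and B3galnt1 were −1.17, −1.21 and −1.38. Over the alternatives tried the adjusted p reached 0.0605 for Acss1, 0.0834 for Elovl7 and 0.0979 for B3galnt1.

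At Sqle, Lipg and Acly, HFD replicate 1 was the highest and not the lowest HFD library. Sqle (ENSMAUG00000004073), the squalene epoxidase of cholesterol synthesis, had 2.19, 2.98 and 8.15 CPM in the HFD group and 1.18, 1.71 and 2.43 CPM in the HFD-T070 5% group. The highest value was that of HFD replicate 1, HFD was the higher in 62 of 64 pairs, and 7 of the 8 HFD-T070 5% libraries were below all HFD libraries. For Sqle, the log2 fold change of −1.004 did not pass the threshold (SE 0.31, adjusted p = 0.0565), and neither did −0.72 without HFD replicate 1 (SE 0.27, adjusted p = 0.0598), with a range of adjusted p over the alternatives of 0.0132 to 0.139. Lipg (ENSMAUG00000000351), the endothelial lipase that acts on the phospholipids of HDL, had 3.70, 4.93 and 112.7 CPM and 1.58, 3.42 and 8.03 CPM. Its log2 fold change of −2.43 (SE 0.67, adjusted p = 0.0403) became −0.89 (SE 0.43, adjusted p = 0.142) without HFD replicate 1, which held the highest value, and over the alternatives the adjusted p ranged from 0.00598 to 0.270. Acly (ENSMAUG00000000465), which supplies acetyl-CoA for fatty acid and sterol synthesis, had 33.4, 38.6 and 3108 CPM and 28.1, 70.7 and 216.8 CPM. Its medians and its means were therefore ordered in opposite ways: the HFD mean was 425.9 ± 1084 CPM (SD, n = 8) with HFD replicate 1 and 42.6 ± 13.5 CPM (SD, n = 7) without it, beside 80.9 ± 62.8 CPM (SD, n = 8) with Totum-070. The log2 fold change of Acly was −2.39 (SE 0.94, adjusted p = 0.124) and 0.92 without that library (SE 0.48, adjusted p = 0.179), and the adjusted p over the alternatives was 0.0552 to 0.967. Neither value passed the threshold.

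**Figure D5:**
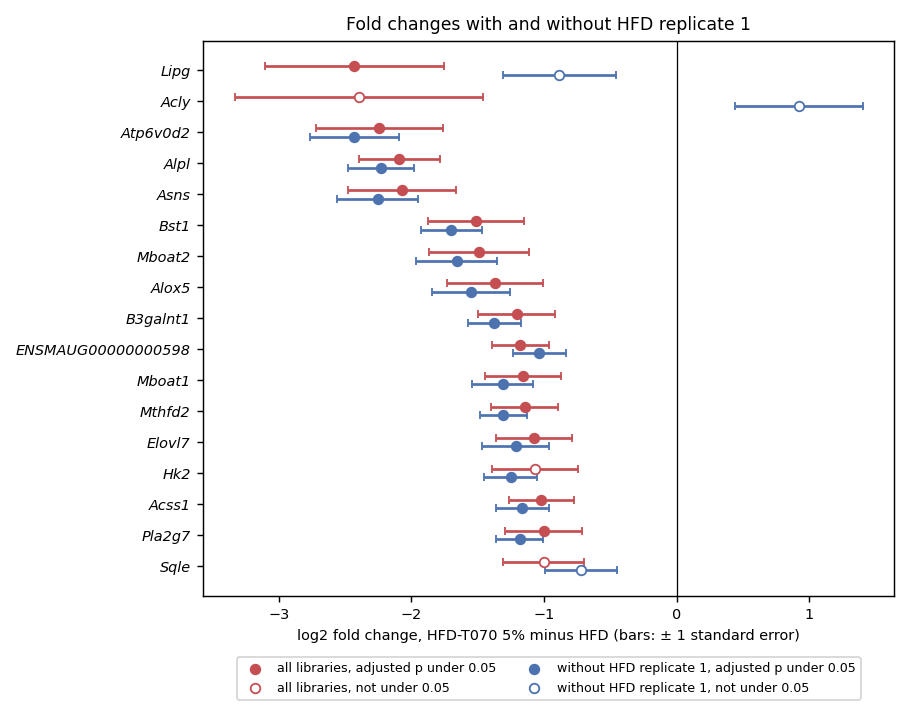
Log2 fold change of HFD-T070 5% minus HFD for the 17 named genes with 1 standard error to each side, over all libraries (red) and without HFD replicate 1 (blue), filled where the adjusted p was under 0.05. The values of 13 genes moved further from 0 without HFD replicate 1, those of Lipg, Sqle and ENSMAUG00000000598 moved toward 0, and that of Acly crossed from −2.39 to 0.92.

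Single libraries stood out across the named genes. The listed genes were chosen by the study on these libraries and share each library, so the counts below are not independent of each other. For single libraries, such overlaps were not counted over all genes tested. HFD replicate 1 fell inside the ND range at 12 of the 17 genes, and was the lowest HFD library at 13 and the highest at 4 (Lipg, Acly, Sqle and ENSMAUG00000000598). HFD replicate 2 fell inside the HFD-T070 5% range at 10 genes and HFD replicate 7 at 8, whereas each other HFD library did so at 2 or 3. In the HFD-T070 5% group, replicate 5 was the highest library at 11 of the 17 genes and lay among the 7 other HFD libraries at 10, and each other library of the group did so at 1 to 4. Without HFD replicate 1, all 8 HFD-T070 5% libraries were below all HFD libraries in CPM at 4 of the genes, Alpl, Asns, Mthfd2 and ENSMAUG00000000598 (background 1.12%). By library totals without TMM, HFD-T070 5% replicate 5 was above HFD replicate 2 at Asns and ENSMAUG00000000598.

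Of the 14 listed genes called over all libraries, Alpl, Atp6v0d2, Asns and ENSMAUG00000000598 stayed called with any 1 library left out. Without HFD replicate 4 the other 10 were not called, with adjusted p up to 0.104 (edgeR). In that fit 71 of all 13167 genes tested were called lower and 34 higher. Without HFD-T070 5% replicate 8, calls of 8 genes ended (Acss1, Alox5, Bst1, Elovl7, Lipg, Mboat1, Mboat2 and Pla2g7), with adjusted p up to 0.0871, and without HFD replicate 6 those of 7 (Alox5, B3galnt1, Elovl7, Lipg, Mboat1, Mboat2 and Pla2g7), with adjusted p up to 0.0975. Acss1, Alox5, Elovl7, Mboat1 and Pla2g7 were not called without HFD replicate 5 (adjusted p up to 0.0931), and Alox5, Elovl7, Mboat2 and Pla2g7 without HFD replicate 8 (up to 0.0891). Elovl7, Mboat2 and Pla2g7 were not called without HFD replicate 3 (up to 0.0954). Alox5, Elovl7, Lipg, Mboat2 and Pla2g7 were not called without HFD-T070 5% replicate 2, 3, 4 or 6 (up to 0.0829), Elovl7, Lipg and Pla2g7 without HFD-T070 5% replicate 1 (up to 0.0704), and Mboat2 and Pla2g7 without HFD-T070 5% replicate 7 (up to 0.0673). Pla2g7 was not called either without ND replicate 3, 5 or 6, at up to 0.0519. In the other direction, Hk2 and Sqle passed without HFD-T070 5% replicate 5 or either of HFD replicates 2 and 7, with adjusted p of 0.0292 to 0.0431, and Sqle without ND replicate 7 or 8, at 0.0449 and 0.0384.

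The ND libraries give the level in the absence of the HFD, and the comparisons with ND share libraries with the one above, so values are set side by side. In HFD compared with ND, 13 listed genes were called higher (background 27.3%) and 1 lower (background 26.3%), and without HFD replicate 1 the numbers were 13 (30.5%) and 3 (27.6%), the 3 being Sqle, Lipg and Acly. In HFD-T070 5% compared with ND, 10 were called higher (background 22.3%) and 4 lower (background 21.0%), and without HFD replicate 1, which changes the fit but not these libraries, 11 (24.7%) and 4 (21.5%). At 13 of the 17 named genes the supplemented mean was between those of ND and HFD. The study picked its genes on the same libraries, and all 17 had a lower mean with Totum-070 than with HFD alone. Where HFD was above ND, such a middle position was therefore partly set by that choice. Its share over all genes tested was not counted, so the position is only a description. Pla2g7 had 6.98 ± 1.70 CPM in ND, 66.3 ± 32.0 CPM in HFD and 33.1 ± 6.43 CPM in HFD-T070 5% (SD, n = 8 each), and its log2 fold change to ND was 3.25 in HFD (adjusted p = 5.74e-08, edgeR) and 2.24 with Totum-070 (adjusted p = 8.70e-06). Hk2 had 0.996 ± 0.379, 15.7 ± 7.07 and 7.48 ± 2.75 CPM, with log2 fold changes to ND of 3.96 (adjusted p = 6.54e-08) and 2.90 (adjusted p = 8.54e-06). At both genes all 8 HFD-T070 5% libraries stayed above the ND range.

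Alpl, Mboat2 and Mthfd2 were called higher than ND in the HFD group and not in the HFD-T070 5% group. Alpl had 0.254 ± 0.133 CPM in ND, 1.73 ± 0.700 CPM in HFD and 0.406 ± 0.166 CPM in HFD-T070 5%, with log2 fold changes to ND of 2.77 (adjusted p = 6.71e-07) and 0.68 (adjusted p = 0.201). Mboat2 had 0.298 ± 0.193, 1.20 ± 0.678 and 0.441 ± 0.238 CPM, with log2 fold changes to ND of 2.06 (adjusted p = 2.80e-04) and 0.57 (adjusted p = 0.368). Of the HFD-T070 5% libraries, 6 were within the ND range at Mboat2, 4 at Mthfd2 and 3 at Alpl. Mthfd2 in HFD-T070 5% compared with ND had an adjusted p of 0.0692, and of 0.00939 in the fit without HFD replicate 1. A p above the threshold does not show that these levels equal those of ND.

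At 4 genes the HFD-T070 5% mean was below both other means, at Acly only with HFD replicate 1 included. Sqle had 9.96 ± 5.06 CPM in ND, 3.47 ± 1.93 CPM in HFD and 1.70 ± 0.394 CPM in HFD-T070 5%, and its log2 fold change to ND was −1.54 in HFD (adjusted p = 7.16e-05) and −2.54 with Totum-070 (adjusted p = 1.81e-06). All 8 HFD-T070 5% libraries were below the ND range. Lipg had 45.7 ± 25.2, 20.0 ± 37.8 and 3.66 ± 2.06 CPM, with log2 fold changes to ND of −1.20 (adjusted p = 0.105) and −3.63 (adjusted p = 2.30e-04), and again all HFD-T070 5% libraries were below the ND range. Lipg was called lower in HFD than in ND without HFD replicate 1, with a log2 fold change of −2.73 (adjusted p = 5.17e-06). ENSMAUG00000000598 did not differ between HFD and ND beyond the spread, at 21.1 ± 6.81 CPM and 20.1 ± 7.54 CPM (log2 fold change 0.07, adjusted p = 0.795), and in HFD-T070 5% it was 9.32 ± 2.05 CPM, lower than ND by a log2 fold change of −1.11 (adjusted p = 2.42e-04). Acly had 1083 ± 858 CPM in ND, and its HFD-T070 5% mean of 80.9 CPM lay between ND and HFD once HFD replicate 1 was left out. Its log2 fold change to ND was −3.74 with Totum-070 (adjusted p = 0.00391), with 7 of the 8 libraries below the ND range. In HFD it was −1.35 (adjusted p = 0.213), and −4.65 without HFD replicate 1 (adjusted p = 1.46e-07).

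Among genes outside the list with a mean of at least 1 CPM, the largest falls and rises are given by identifier, as the files pair no symbol with them. ENSMAUG00000011442 had 0 counts in all 8 ND libraries and in HFD replicate 1, 1.82 to 5.13 CPM in the other HFD libraries and 0.0563 to 1.31 CPM in the HFD-T070 5% libraries. The HFD-T070 5% libraries were thus all below the 7 other HFD libraries. Over all libraries the log2 fold change of ENSMAUG00000011442 was −2.64 (SE 0.52, adjusted p = 0.0151, edgeR). Without HFD replicate 1 it was −2.83 (SE 0.35, adjusted p = 4.90e-05). ENSMAUG00000013987 had 0.801, 3.92 and 13.0 CPM in the HFD group and 0.282, 0.832 and 1.19 CPM with Totum-070 (log2 fold change −2.50, SE 0.42, adjusted p = 0.00698). Its HFD libraries were the more scattered, and the lowest of them overlapped the HFD-T070 5% group. ENSMAUG00000014727 rose from 0.0900, 0.662 and 0.846 CPM to 0.164, 1.41 and 3.61 CPM (log2 fold change 1.44, SE 0.39, adjusted p = 0.0365), with overlapping ranges. ENSMAUG00000007523 rose from 0.632, 1.14 and 1.39 CPM to 1.33, 2.33 and 3.81 CPM (log2 fold change 1.19, SE 0.24, adjusted p = 0.0147). Only the end of the ranges touched, and ND, at 1.16, 1.94 and 3.45 CPM, covered most of the HFD-T070 5% range. Without HFD replicate 1 the log2 fold change was −2.66 for ENSMAUG00000013987 (adjusted p = 4.94e-05, edgeR). It was 1.35 for ENSMAUG00000014727 (adjusted p = 0.0158) and 1.24 for ENSMAUG00000007523 (adjusted p = 0.00110).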

How the data were processed

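Libraries were grouped and numbered by their labels. After depletion of ribosomal RNA, the authors made strand-directional libraries and sequenced them over 75 cycles from a single end, and used Trimmomatic 0.36 for trimming and STAR 2.7.10 for mapping to MesAur1 and counting (versions per the submitters' processing notes). They deposited raw counts as whole numbers for 22283 genes, of which 3773 had no count. Strand setting and annotation release are not given in the sources used here, so overlapping genes may share reads. Libraries of a group differed by more than sampling noise (lowest chi-square per degree of freedom 7.69), so none was merged.

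Counts were analysed with edgeR 4.0.16 in R 4.3.3. Genes passed filterByExpr (minimum count 10, minimum total 15), which left 13134. TMM factors, glmQLFit with legacy set to FALSE and glmQLFTest were applied to all 24 libraries with 3 groups, with Benjamini-Hochberg adjusted p under 0.05 called and no minimum fold change. The standard error (SE) is the size of the log2 fold change over the square root of F. Log2 CPM used a prior count of 2. The script was tested on simulated counts.

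The alternatives were DESeq2 1.42.0 size factors and Wald test, library totals, limma 3.58.1 voom, 2 other filters, only the 2 groups, a replicate block, a minimum log2 change of 1 in size and each library left out. Dispersions from estimateDisp and leaving out both HFD replicates 1 and 7 were added after the data were seen. The named genes were all genes of the study's list, and, by log2 fold change, the 2 largest falls and rises among called genes with a mean of at least 1 CPM. The comparison and the lists were chosen with earlier results of these data known. The RefSeq gene table matched 0 identifiers, so pathway, RT-qPCR and cell type lists were not analysed here. A listed gene is not reported here by name. Low counts give the least precision, and p-values set differences between groups against the spread between hamsters of this experiment.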

Additional observations from a re-analysis of the deposited data

Results flagged for a closer look

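Totals, library measures and named genes gave 40 groups of 8 values, and in each the highest and lowest values (of genes, on the log2 CPM scale) were compared with Dixon's critical value for 8 values. Chance singles out about 1 value in 20 groups. Here there were 11, with 10 at HFD replicate 1. As the named genes were chosen by the study on these libraries and share each library, these values are not independent of each other.

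Compared with the other HFD libraries, HFD replicate 1 was high for Acly (3108 CPM) and Sqle (8.15 CPM). It was low for Atp6v0d2 (0 CPM, no count), Asns (0.0697 CPM), Bst1 (0.557 CPM), Mboat2 (0.0697 CPM), B3galnt1 (0.488 CPM), Mthfd2 (0.766 CPM), Hk2 (1.11 CPM) and Pla2g7 (7.87 CPM). The total of HFD replicate 7, 10789142 counts, was the lowest of its group.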

How the results depend on the processing

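Beside 405 genes lower and 219 higher, the Wald test of DESeq2 gave 811 and 398, only the HFD and HFD-T070 5% libraries 81 and 61, a fold-change minimum of 1 (log2) gave 177 and 4, and excluding both HFD replicate 1 and HFD replicate 7 gave 2679 and 2483. With voom 145 genes were lower and 212 higher, the reverse balance, and with at least 10 counts in every library 239 and 168. Leaving out each library in turn gave 71 to 1711 lower and 34 to 1224 higher, the lowest without HFD replicate 4 and the highest without HFD replicate 1. Of the listed genes, 14 called over all libraries, 2 were called with voom, 5 with at least 10 counts in every library (fewer listed genes tested), 3 with only the 2 groups, and 4 (without HFD replicate 4) to 17 (without HFD replicate 7) with a library left out. The genes at which the groups do not overlap were 7 lower with library totals, and 13 to 147 lower and 23 to 112 higher with a library left out. The replicate numbers do not pair the samples: deviations of same-numbered libraries correlated at −0.24 to 0.49, over 0.1 in 2 of 8 pairs, and 2 of 8 correlated best with their own number. With the replicate block, 184 of 13134 genes were lower and 162 higher, and 8 listed genes were called. The log2 fold change of Acly was 0.074 with the replicate block, 1.10 without HFD replicates 1 and 7, and −2.79 (without HFD-T070 5% replicate 3) to 0.92 (without HFD replicate 1) with a library left out. Over all named genes and alternatives, 453 values kept their direction and side of the threshold, 99 lost the threshold, 14 passed it and 3 reversed. The cause of these differences was not tested. Genes of a few counts per library limit the precision at this depth.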
